A study of Homo sapiens with 8 samples.

Results

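The genes described here encode subunits of the mitochondrial respiratory chain and of ATP synthase, with some assembly factors of complex I, and were read in HEK293, a cell line of human embryonic kidney origin. They were chosen by symbol: protein-coding genes starting with NDUFA, NDUFB, NDUFC, NDUFS, NDUFV, UQCR, COX4 to COX8 or ATP5, and protein genes of mitochondrial DNA starting with MT-ND, MT-CO, MT-ATP or MT-CYB. Of 58440 genes in the deposited table, 107 met this rule, 94 of them nuclear and 13 mitochondrially encoded. Polyadenylated RNA was sequenced from 8 libraries, 4 from cells given 1 µM serotonin for 1 h and 4 from cells with no ligand, all after 3 h without serum per the labels. The labels name cells stably overexpressing HTR1E, a receptor for serotonin, and control HEK293 cells, with 2 samples of each line in each treatment. They do not say whether replicates came from separate cultures, so p-values measure only the spread between these libraries.

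The columns are named by treatment and by a code that starts with A or B, and each code is used once in each treatment. The libraries are called A1, A2, B1 and B2 here, with like numbers for like codes; the numbers only name them. No label ties a code to a cell line. Libraries are therefore described by treatment and by the first letter of the code, and none was given a cell line from its counts. HTR1E itself stood at 221 and 226 normalised CPM in serotonin A1 and A2 and at 175 and 181 in no-ligand A1 and A2. In serotonin B1 and B2 it stood at 0.24 and 0.50, from 2 and 3 read pairs, and it had no count in no-ligand B1 and B2. Normalised CPM are counts per library size, after TMM correction by edgeR, on the usual CPM scale.

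The respiratory chain passes electrons from NADH and succinate through complexes I, II and III and cytochrome c to complex IV, which reduces oxygen, and ATP synthase uses the resulting proton gradient. Most subunits are made from nuclear genes and imported. A few hydrophobic core subunits are made inside the organelle from mitochondrial DNA, which is transcribed as long RNAs that are then cut into single mRNAs. Complex II is wholly nuclear and lies outside the rule.

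Total counts ranged from 2604885 to 9072278 per library. The no-ligand B1 library stood apart. It was the shallowest, and 43.9% of its counts fell on the mitochondrial ribosomal RNAs, against 7.37% to 15.4% in the others. Its short genes were low: with genes in 5 length classes, the median log2 deviation of the shortest class minus that of the longest was -1.22, against -0.33 to 0.48 in the others. The mean correlation with the other libraries was 0.757 for no-ligand B1 and 0.810 for serotonin B2, and 0.892 to 0.907 for the rest. The main counts of called genes are given with and without these 2 libraries. Of the HEK293 markers, VIM ranged from 299.5 to 456 normalised CPM and NEFL from 16.6 to 38.0. INA ranged from 13.1 to 24.3 and LIN28B from 22.8 to 65.7. PAX2 stood at 21.6 in serotonin B2 and at 1.82 to 5.98 in the others. NEFM was lower, at 3.20 to 5.22 in A libraries and 0.58 to 1.34 in B libraries (1 to 9 read pairs there). Of the markers of other cell types, the blood marker PTPRC had no count in any library. The fibroblast marker COL1A1, however, ranged from 12.1 to 43.9 normalised CPM, as high as NEFL. DCN, also of fibroblasts, reached at most 0.25, CD3E of blood 0.58, PECAM1 and CDH5 of endothelium 0.50 and 0.17, and ALB of liver 1.73.

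The 13 mitochondrial mRNAs took 9.16% to 26.3% of all counts in serotonin libraries and 9.82% to 11.2% in no-ligand libraries. The 94 nuclear genes together took 0.470% to 0.681% in serotonin libraries and 0.192% to 0.775% in no-ligand libraries. The highest mitochondrial share was in serotonin B2 and the lowest nuclear share in no-ligand B1.

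**Figure D1:**
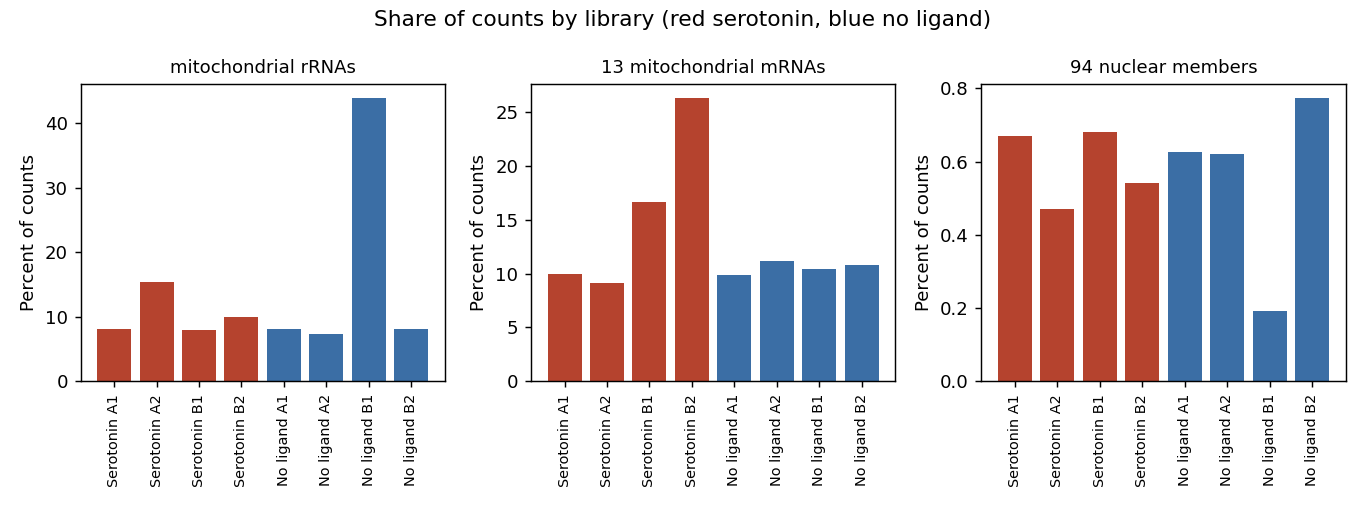
Percent of each library's counts on the mitochondrial rRNAs (left), the 13 mitochondrial mRNAs (middle) and the 94 nuclear members (right), with 1 bar per library, serotonin in red and no ligand in blue. No-ligand B1 had 43.9% of counts on the rRNAs and 0.192% on the nuclear members, and serotonin B2 had 26.3% on the mitochondrial mRNAs.

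Levels of different genes were compared per length, as the mean over libraries of normalised CPM per kilobase (RPKM), with no test. MT-CO1, MT-CO2 and MT-CO3, the core subunits of complex IV, averaged 26839, 19607 and 16210 RPKM. MT-ND1, of complex I, averaged 10017 RPKM and MT-ND6, the lowest of the mitochondrially encoded genes, 3923 RPKM. Every one of the 13 was thus above every nuclear member per length.

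The highest nuclear members were ATP5F1B, the catalytic beta subunit of ATP synthase, at 197.7 RPKM, and COX6B1, an accessory complex IV subunit on the intermembrane side, at 195 RPKM. In complex IV, COX8A and COX5B followed at 152 and 92.1 RPKM. In complex III, UQCRH, the hinge subunit, averaged 85.7 RPKM, UQCRQ 50.6 and UQCR10 48.7. Small accessory subunits also led complex I, with NDUFB7 at 135, NDUFS5 at 114 and NDUFB11 at 74.6 RPKM. Its nuclear core subunits, which carry the flavin and iron-sulfur centres, were headed by NDUFV1 at 40.1 RPKM, NDUFS3 at 17.9 and NDUFS8 at 15.9. The assembly factors NDUFAF8 and NDUFAF3 averaged 34.1 and 18.9 RPKM. After ATP5F1B, the highest ATP synthase genes were ATP5MK at 48.7 RPKM and ATP5F1C, the gamma subunit, at 42.2.

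The gene length in the table is that of all exons together, so RPKM is low for genes with long alternative exons. Of the 107 genes, 48 have pseudogenes named after them, with which read pairs may be split. COX8A shared 34.5% of its exonic bases with another gene on the same strand, and NDUFV2, a core subunit at only 1.48 RPKM, shared 28.4%.

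Isoforms known from other tissues were at or near 0. COX7B2 and COX8C had no count in any library. COX4I2, the lung isoform of subunit 4, had 2 read pairs in serotonin B2 and none elsewhere, whereas the widely expressed COX4I1 averaged 138 normalised CPM. COX6A2 and COX7A1, the heart and muscle isoforms, had 2 and 4 read pairs over all libraries. COX6B2, the testis isoform, ranged from 0.84 to 2.17 normalised CPM in serotonin libraries and from 0.11 to 1.08 in no-ligand libraries. With the read-through genes NDUFC2-KCTD14 and ATP5MF-PTCD1 and the retrocopy ATP5MGL, 8 of the 107 genes were too low to test, and 99 were tested.

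Serotonin was set against no ligand to ask whether the ligand moved these transcripts within 1 h. No respiratory chain gene passed the test. With edgeR's quasi-likelihood test, averaged over the letters, 0 of 99 were called at an adjusted p under 0.05, where 0.00583% of the 17144 genes tested were called. That was 1 gene, NR4A1, an immediate early nuclear receptor, with a log2 fold change of 1.68 ± 0.19 (SE) and an adjusted p of 0.0454. Of the 99, 5 had an unadjusted p under 0.05, and DESeq2 also called 0, where it called 0.0642% of all genes, all higher. Unadjusted p-values were counted for the members only, here and below, so these counts have no background of all genes. The median log2 fold change was 0.19 over the nuclear and 0.38 over the mitochondrially encoded genes, against 0.00 over all genes tested. The mitochondrial median was 0.14 without serotonin B2 and 0.68 without no-ligand B1.

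Without no-ligand B1 and serotonin B2, 0 of 99 were again called, where 0.0382% of 18303 genes were, 0.0328% higher and 0.00546% lower. The nuclear median was then -0.02 and the mitochondrial one 0.31. All 13 mitochondrially encoded genes had values above 0 in both fits when averaged over the letters. Within the A libraries, however, 11 of the 13 had values below 0 in both fits. Leaving out no-ligand B2 alone gave 33 members called, all higher with serotonin, and a nuclear median of 0.60, where 8.96% of all genes were called, 6.41% higher and 2.55% lower. In that fit no-ligand B1 was the sole no-ligand library of its letter. No member was called on leaving out any other single library.

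The genes with an unadjusted p under 0.05 were MT-ND3, MT-ND6, COX6B2, NDUFA3 and NDUFAF7. MT-ND6, the complex I gene on the opposite strand of mitochondrial DNA, stood at 1226, 925, 2608 and 6847 normalised CPM in serotonin A1, A2, B1 and B2, against 1096, 1458, 786 and 1530 in no-ligand A1, A2, B1 and B2. The treatments overlapped, and the log2 fold change was 0.89 ± 0.37 (SE), with an adjusted p of 0.429. NDUFA3, an accessory complex I subunit, stood at 49.7, 35.8, 53.5 and 102 in serotonin A1, A2, B1 and B2, against 38.8, 37.3, 35.1 and 46.7 in no-ligand A1, A2, B1 and B2. It too overlapped between treatments, with a log2 fold change of 0.54 ± 0.24 (SE) and an adjusted p of 0.443.

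Within the A libraries the treatments lay close together. ATP5F1B stood at 466 and 404 normalised CPM in serotonin A1 and A2, against 495 and 524 in no-ligand A1 and A2. COX4I1 stood at 153 and 104 in serotonin A1 and A2, against 125 and 151 in no-ligand A1 and A2. COX4I1 overlapped between treatments, and ATP5F1B was lower in both serotonin libraries, with a log2 fold change of -0.23 ± 0.42 (SE). Among all genes 0% were called here by edgeR, and 0 of the 99 had an unadjusted p under 0.05. DESeq2 also called 0 members, and 0% of all genes. A fit of the 4 A libraries alone called 0 as well.

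Log2 fold changes in A ran from -0.94 for NDUFA4L2, a hypoxia-induced relative of NDUFA4, to 0.87 for COX6B2. The 12 complex IV genes and the 8 complex III genes all had values below 0, with medians of -0.20 and -0.08. Serotonin A2, in which 15.4% of counts were mitochondrial rRNA, against 8.18% in serotonin A1, moved the nuclear median. That median was -0.10 with all libraries, 0.13 without serotonin A2 and -0.41 without serotonin A1. The part of RNA quality in this was not tested.

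Within the B libraries values were wider apart. MT-ND2, a complex I subunit, stood at 10534 and 26144 normalised CPM in serotonin B1 and B2, against 9802 and 4936 in no-ligand B1 and B2. NDUFV1, which binds the flavin of complex I, stood at 187 and 365 in serotonin B1 and B2, against 47.2 and 163 in no-ligand B1 and B2. Both were higher in both serotonin libraries. MT-ND2 had a log2 fold change of 1.32 ± 0.57 (SE) and an adjusted p of 0.169. ATP5F1B went the other way, at 414 and 294 in serotonin B1 and B2, against 307 and 769 in no-ligand B1 and B2, and overlapped.

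Of the 99 genes 0 were called within B, where 0.0117% of all genes were, namely NR4A1 and NR4A2. An unadjusted p under 0.05 was found for 24 of the 99, with no count over all genes to set beside it. DESeq2 called 11, all higher, where it called 9.33% of all genes, 6.18% higher and 3.14% lower. The median was 0.46 over the nuclear and 0.93 over the mitochondrially encoded genes. Without no-ligand B1 and serotonin B2 these medians were 0.03 and 0.82, but the mitochondrial one was 0.47 without serotonin B2 alone and 1.45 without no-ligand B1 alone. Without both, each treatment had 1 B library, taken to vary like the A libraries. Then edgeR called 0 members, where 0.459% of all genes were called, 0.355% higher and 0.104% lower, and 14 members had an unadjusted p under 0.05. The difference in response, A minus B, was called for 0 of 99 genes and for 0% of all genes by edgeR. Of the 99, 6 had an unadjusted p under 0.05 for it. DESeq2 called 2, both lower, where it called 0.449% of all genes, 0.0642% higher and 0.385% lower.

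**Figure D2:**
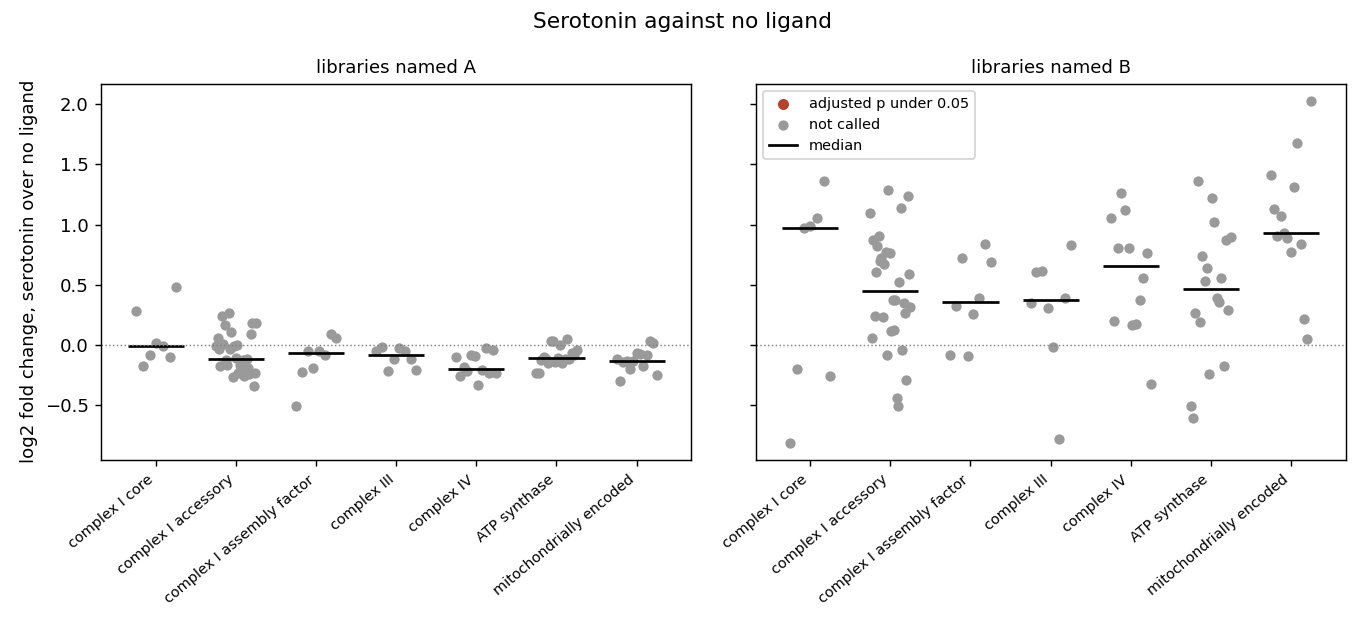
Log2 fold change of serotonin over no ligand for the tested genes by role, isoforms and UQCRHL left out, in libraries named A (left) and B (right), with 1 grey point per gene and black lines at the medians. No gene was called in either panel, and the mitochondrially encoded genes had medians of -0.13 in A and 0.93 in B.

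Libraries whose codes start with A were then set against those that start with B. COX6B1 had the lowest fold change of the nuclear genes. COX6B1 (ENSG00000126267.8, chromosome 19, 35648223 to 35658861, plus strand, hg38 as the table gives it) stood at 108, 67.5, 98.3 and 87.9 normalised CPM in serotonin A1, serotonin A2, no-ligand A1 and no-ligand A2. In serotonin B1, serotonin B2, no-ligand B1 and no-ligand B2 it stood at 289, 466, 95.0 and 249. Every B library other than no-ligand B1 was above every A library, and no-ligand B1 lay within the A range.

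COX6B1 averaged 90.5 ± 17.5 normalised CPM in A and 275 ± 152 in B (SD, n = 4 each). Its log2 fold change was -1.50 ± 0.32 (SE), with an adjusted p of 0.0151 by edgeR. Without no-ligand B1 and serotonin B2 it was -1.58. That fit left 1 B library per treatment, so its spread came from the A libraries alone. This holds for every difference between letters given without these 2 libraries. Leaving out single libraries ended the call in 4 cases: the adjusted p was 0.086 without serotonin A2, 0.0794 without serotonin B2, 0.0797 without no-ligand A1 and 0.0988 without no-ligand A2. Within serotonin libraries the log2 fold change was -2.10, with an adjusted p of 0.0281, and within no-ligand libraries it was -0.90, with an adjusted p of 0.299. Over all libraries 1 read pair fell on the 7 pseudogenes named after COX6B1, against 10673 on the gene.

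The promoters of COX6B1 and of UQCRFS1, the Rieske iron-sulfur subunit of complex III, are shown because these nuclear genes had the lowest fold changes of A over B without the 2 libraries. They come from RefSeq, GRCh38.p14, and run from 250 bases before to 50 after the start. Both strands were searched for the site of NRF1, a transcription factor of respiratory chain genes, read as GCGC, any base, then TGCGC, and for the ETS site CCGGAAGT. Capitals mark a match to the NRF1 site.
COX6B1, chr19:35648073-35648372, plus strand: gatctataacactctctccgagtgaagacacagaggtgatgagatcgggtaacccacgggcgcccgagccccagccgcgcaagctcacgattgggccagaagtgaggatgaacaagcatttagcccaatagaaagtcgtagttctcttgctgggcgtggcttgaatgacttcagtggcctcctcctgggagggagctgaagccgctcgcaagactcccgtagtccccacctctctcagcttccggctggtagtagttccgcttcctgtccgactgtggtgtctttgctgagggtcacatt
UQCRFS1, chr19:29213102-29213401, minus strand: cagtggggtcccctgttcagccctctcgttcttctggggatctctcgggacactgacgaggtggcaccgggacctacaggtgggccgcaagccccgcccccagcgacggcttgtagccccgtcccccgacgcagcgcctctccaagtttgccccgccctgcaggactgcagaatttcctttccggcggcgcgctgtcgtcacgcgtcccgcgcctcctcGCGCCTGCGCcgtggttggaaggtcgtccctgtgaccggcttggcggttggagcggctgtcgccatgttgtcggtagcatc
The COX6B1 window held no match to either site, and the UQCRFS1 window held 1 to the NRF1 site and none to the ETS site. Of the 35116 promoters of this length in the table, 5.78% held the NRF1 site and 4.14% the ETS site. A share over the members is not given, because only 75 of the 94 nuclear genes matched a promoter.

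**Figure D3:**
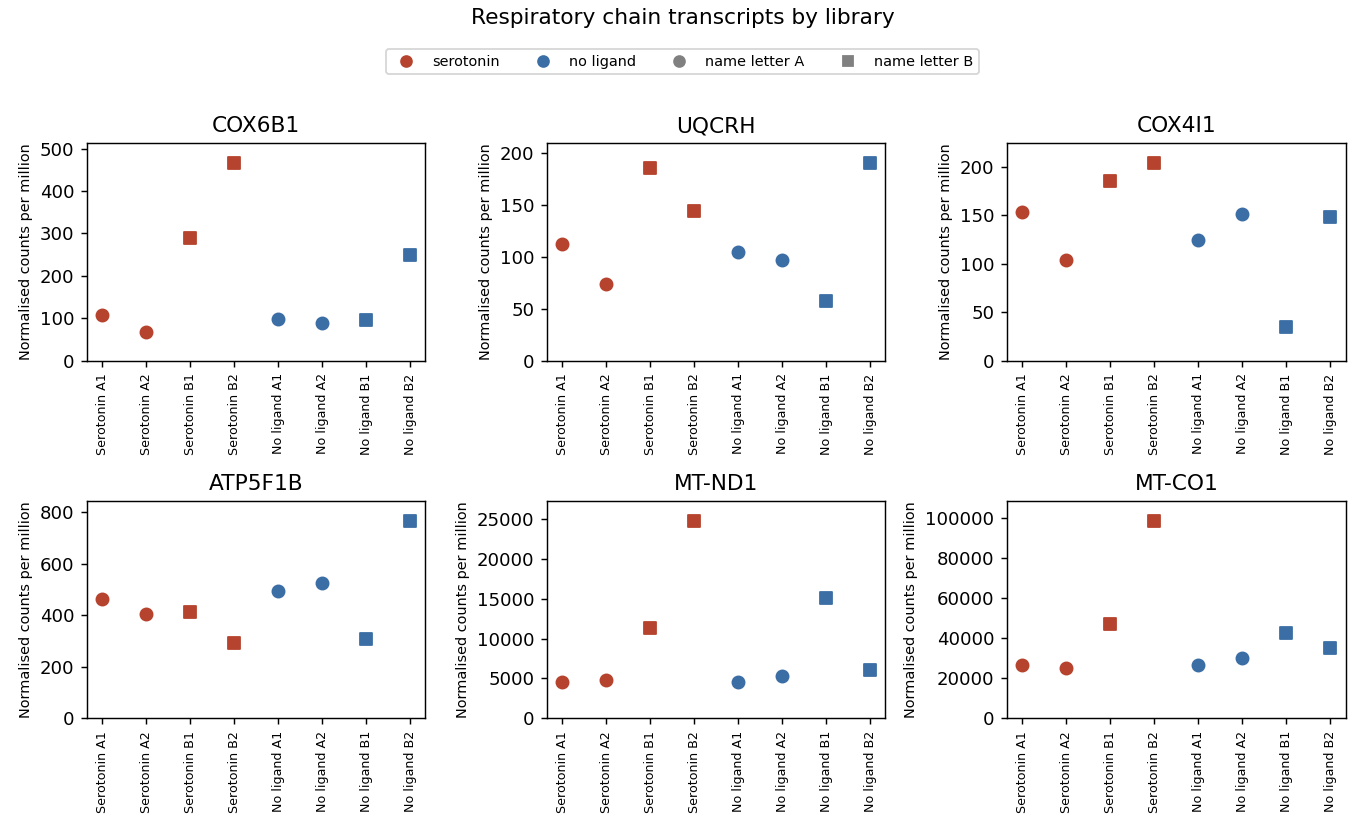
Normalised CPM of 6 genes, with 1 point per library, red for serotonin and blue for no ligand, circles for codes starting with A and squares for B. COX6B1 lay between 67.5 and 108 in A and reached 466 in B, with no-ligand B1 at 95.0.

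The mitochondrially encoded genes all had values below 0 for A over B, with a median log2 fold change of -0.98. MT-ND1 (ENSG00000198888.2, mitochondrial DNA, 3307 to 4262) stood at 4615, 4819, 4535 and 5365 normalised CPM in serotonin A1, serotonin A2, no-ligand A1 and no-ligand A2. It stood at 11281, 24831, 15086.5 and 6074 in serotonin B1, serotonin B2, no-ligand B1 and no-ligand B2. The letters did not overlap, and the log2 fold change was -1.52 ± 0.41 (SE), with an adjusted p of 0.0427.

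MT-ND2 stood at 4186, 4230, 4067 and 4810 normalised CPM in serotonin A1, serotonin A2, no-ligand A1 and no-ligand A2. Against the B values above it did not overlap either. In CPM without the TMM correction it did, at 5364 in no-ligand B2 and 5385 in no-ligand A2. Its log2 fold change was -1.43 ± 0.40 (SE), with an adjusted p of 0.0476. Both calls were lost, with adjusted p-values between 0.146 and 0.235, on leaving out serotonin A1, serotonin A2, serotonin B2, no-ligand A1 or no-ligand A2. Without no-ligand B1 and serotonin B2 together MT-ND1 had -0.79 and MT-ND2 -0.75.

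MT-CO1 stood at 26746, 24821, 26762 and 30112 normalised CPM in serotonin A1, serotonin A2, no-ligand A1 and no-ligand A2, against 46781, 98475, 42256 and 35136 in serotonin B1, serotonin B2, no-ligand B1 and no-ligand B2. MT-CO1 did not overlap between letters, but was not called by edgeR (log2 fold change -0.97, adjusted p 0.182). In CPM without the TMM correction it stood at 28168 in no-ligand B1, within the 27315 to 33707 of the A libraries. MT-CYB, of complex III, stood at 5599 in no-ligand B2, within the 5597 to 6848 of the A libraries. Within treatments the median of the 13 was -1.51 in serotonin libraries and -0.44 in no-ligand libraries. It was -0.92 in serotonin libraries without serotonin B2 and -0.15 in no-ligand libraries without no-ligand B1. Without both it was -0.92 in serotonin and -0.12 in no-ligand libraries. Without no-ligand B1 and serotonin B2 the overall median was -0.57, against 0.03 over all genes tested, and all 13 had values below 0. MT-ATP8 shared 22.2% of its bases with MT-ATP6 on the same strand.

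The 13 mRNAs together were 14.8 and 19.5 times the nuclear genes in serotonin A1 and A2, and 15.7 and 18.0 times in no-ligand A1 and A2. In serotonin B1 and B2 they were 24.4 and 48.6 times, and in no-ligand B1 54.3 times. No-ligand B2 was below all of the A libraries. The ratio was thus not higher in every B library. Mitochondrial rRNA took 7.89% and 9.94% of counts in serotonin B1 and B2 and 43.9% and 8.06% in no-ligand B1 and B2. It took 15.4% in serotonin A2, above serotonin B1, whose ratio was higher.

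Over all 8 libraries 3 of the 99 genes, COX6B1, MT-ND1 and MT-ND2, were called between the letters, all lower in A, where 9.36% of all genes were called, 5.27% higher and 4.09% lower. The members' share of 3.03% lies below that background. Among serotonin libraries 4 were called lower, COX6B1, MT-ND3, MT-ND6 and MT-ATP8, where 5.25% of genes were called, 2.33% higher and 2.92% lower. DESeq2 called 15 there, all lower, where it called 8.87% of genes, 3.35% higher and 5.52% lower. Among no-ligand libraries edgeR called 0 members, where 2.42% of genes were called, 1.52% higher and 0.904% lower, and 5 members had an unadjusted p under 0.05. DESeq2 called 0 members there, where it called 4.91% of genes, 2.54% higher and 2.37% lower. Without no-ligand B1 and serotonin B2 33 of 99 were called, 32 lower and 1 higher in A, where 19.3% of all genes were called, 9.86% higher and 9.42% lower. In that fit 20 were called lower among serotonin libraries, where 10.1% of genes were called, 4.67% higher and 5.44% lower. Among no-ligand libraries 6 were called lower, where 8.42% of genes were called, 4.65% higher and 3.77% lower. These were COX6B1, UQCRFS1, UQCRH, UQCRHL, ATP5ME and NDUFC1.

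Those 33 included the 3 called over all libraries. The nuclear median was -0.09 over all libraries and -0.30 without the 2, against 0.00 and 0.03 for all genes tested. Leaving out no-ligand B2 turned the nuclear median to 0.35, with 25 members called higher and 12 lower in A, where 19.1% of all genes were called, 11.3% higher and 7.79% lower. Leaving out no-ligand B1 gave -0.34, with 28 members called, all lower, where 16.4% of all genes were called, 7.55% higher and 8.86% lower. The direction of the nuclear genes between letters thus differed with which of the 2 no-ligand libraries of letter B was kept.

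Without the 2 libraries, 11 of 12 complex IV genes had values below 0, with a median of -0.49 against 0.03 over all genes tested. Among them COX7B and COX7C, small membrane subunits, had -0.69 and -0.67. COX7B stood at 55.1, 36.6, 47.3 and 46.4 normalised CPM in serotonin A1, serotonin A2, no-ligand A1 and no-ligand A2. It stood at 75.5, 77.1, 42.0 and 73.5 in serotonin B1, serotonin B2, no-ligand B1 and no-ligand B2. In no-ligand B1 it lay within the A range. COX8A had 0.36 ± 0.19 (SE) and was not called. COX4I1, COX7A2 and COX6C were not called either.

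In complex III 7 of 8 genes had values below 0 without the 2 libraries, with a median of -0.37. UQCRFS1 stood at 72.5, 60.3, 71.7 and 65.4 normalised CPM in serotonin A1, serotonin A2, no-ligand A1 and no-ligand A2, against 94.6 in serotonin B1 and 188 in no-ligand B2. It was 62.8 in serotonin B2 and 78.9 in no-ligand B1, so the letters overlapped over all libraries. Its log2 fold change was -0.99 without the 2 libraries, and over all 8 libraries -0.61, with an adjusted p of 0.186 by edgeR. UQCRH stood at 112, 73.7, 105 and 97.4 in serotonin A1, serotonin A2, no-ligand A1 and no-ligand A2. It stood at 185.5, 144, 57.0 and 190.4 in serotonin B1, serotonin B2, no-ligand B1 and no-ligand B2. In no-ligand B1 it was below every A library. Its log2 fold change was -0.97 without the 2 libraries, and over all 8 libraries -0.57, with an adjusted p of 0.298 by edgeR. Its retrocopy UQCRHL had -0.96, and reads of these near-identical genes cannot be fully told apart. UQCRC1 and UQCRC2, the large core proteins, were not called.

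In ATP synthase 16 of 18 genes had values below 0 without the 2 libraries, with a median of -0.38. ATP5ME, the membrane-embedded e subunit, stood at 26.9, 19.2, 27.3 and 22.4 normalised CPM in serotonin A1, serotonin A2, no-ligand A1 and no-ligand A2. It stood at 48.4, 88.8, 9.79 and 44.6 in serotonin B1, serotonin B2, no-ligand B1 and no-ligand B2. In no-ligand B1 it was below every A library. Over all 8 libraries its log2 fold change was -0.90, with an adjusted p of 0.142 by edgeR. Without the 2 libraries it was -0.96. ATP5PF, coupling factor 6 of the stalk, had -0.79 and ATP5PO, which joins the stalk to the catalytic head, -0.70. The catalytic subunits ATP5F1A and ATP5F1B were not called.

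In complex I 22 of 30 accessory genes and 6 of 7 nuclear core genes had values below 0 without the 2 libraries. Their medians were -0.25 and -0.22. NDUFC1 stood at 14.7, 11.2, 15.3 and 15.6 normalised CPM in serotonin A1, serotonin A2, no-ligand A1 and no-ligand A2. It stood at 24.3, 25.5, 9.79 and 26.3 in serotonin B1, serotonin B2, no-ligand B1 and no-ligand B2. In no-ligand B1 it was below every A library. Over all 8 libraries its log2 fold change was -0.64, with an adjusted p of 0.156 by edgeR. Without the 2 libraries it was -0.84. NDUFA1 then had -0.72 and NDUFA12 -0.66. NDUFS1, the largest core subunit, stood at 90.2, 115, 92.7 and 76.5 in serotonin A1, serotonin A2, no-ligand A1 and no-ligand A2, against 85.0 in serotonin B1 and 125 in no-ligand B2, and overlapped. Of the 8 assembly factors 7 had values below 0, among them NDUFAF7, a methyltransferase, and NDUFAF3 was higher in A, at 0.63. NDUFAF3 stood at 70.5, 36.9, 59.3 and 52.2 in serotonin A1, serotonin A2, no-ligand A1 and no-ligand A2. It stood at 34.6, 59.1, 19.0 and 35.6 in serotonin B1, serotonin B2, no-ligand B1 and no-ligand B2. In serotonin B2 it lay within the A range. Over all 8 libraries its log2 fold change was 0.59, with an adjusted p of 0.211 by edgeR.

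**Figure D4:**
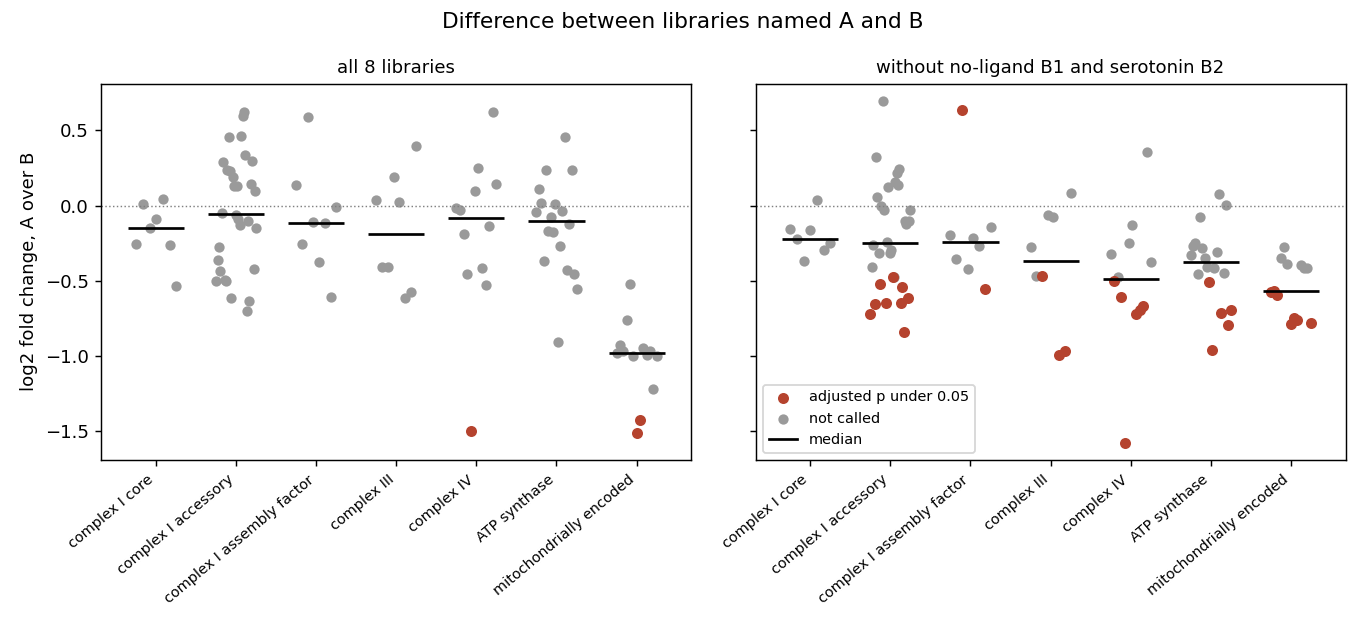
Log2 fold change of A over B libraries for the tested genes by role, over all 8 libraries (left) and without no-ligand B1 and serotonin B2 (right), with 1 point per gene, called genes in red and medians as black lines. COX6B1 is the lowest point of complex IV in both panels, at -1.50 and -1.58.

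Other genes of the pathway were read from lists outside the rule. For serotonin averaged over the letters, none of the tested genes of any list was called, with or without the 2 libraries. Between the letters over all libraries complex II had 0 of 4 called, and without the 2 libraries SDHB, its iron-sulfur subunit, was lower in A. CYCS, cytochrome c, which carries electrons from complex III to IV, stood at 61.9, 52.3, 60.4 and 62.0 normalised CPM in serotonin A1, serotonin A2, no-ligand A1 and no-ligand A2, against 119, 131, 68.5 and 139.8 in serotonin B1, serotonin B2, no-ligand B1 and no-ligand B2. The letters did not overlap, and its log2 fold change was -0.96 ± 0.24 (SE), with an adjusted p of 0.0287 by edgeR. In CPM without the TMM correction, however, CYCS stood at 45.7 in no-ligand B1, below the 57.5 to 70.9 of the A libraries. CYC1, cytochrome c1 of complex III, was called without the 2 libraries and not with them.

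Of 12 genes of mitochondrial DNA copying and expression 1 was called over all libraries, the helicase TWNK, at -1.01 ± 0.18 (SE) with an adjusted p of 0.00568. Without the 2 libraries TFB2M, POLG, TWNK and SSBP1 were lower in A. TFAM, which packages mitochondrial DNA, and POLRMT, its RNA polymerase, were called in neither fit averaged over treatments, but TFAM was called lower in A among no-ligand libraries without the 2. Of 7 regulators 2 were called, the coactivators PPARGC1B, at -1.55, and PPRC1, at -1.06, both lower in A. PPRC1 stood at 55.4, 49.3, 47.3 and 42.5 normalised CPM in serotonin A1, serotonin A2, no-ligand A1 and no-ligand A2, against 90.2, 137, 108 and 74.4 in serotonin B1, serotonin B2, no-ligand B1 and no-ligand B2, with no overlap. NRF1 and PPARGC1A were not called over all libraries. Of 20 tested assembly genes of complexes III to V 0 were called over all libraries, and without the 2 libraries BCS1L and COX19 were lower in A.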

How the data were processed

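The authors deposited 1 table of raw counts of read pairs per gene. Per the file headers, they counted with featureCounts 2.0.1, reverse-stranded, on GENCODE 28; the submitters' processing notes list hg38, cutadapt 3.4, STAR 2.7.8a and SAMtools 1.12. Gene lengths in the table are as deposited. Of 58440 gene IDs, 57754 were paired with a symbol; gene types came from GENCODE 29. Libraries were placed in treatments by the word in their names, and the name's first letter entered the model as such, with no cell line assigned. The test was edgeR 4.0.16 (quasi-likelihood, TMM, filterByExpr, 1 mean per letter and treatment, Benjamini-Hochberg over all genes, called at an adjusted p under 0.05), in R 4.3.3. It was tested on simulated data in which no library stood apart in its gene profile. That test therefore does not cover no-ligand B1 or serotonin B2. DESeq2 1.42.0, other scalings, no filter, other models and leaving out libraries were alternatives. Named genes were the called members, the mitochondrially encoded ones, the isoforms and the 3 highest per complex; other named genes were chosen after their values were seen. The members and lists were chosen with earlier results of these data known. The alternatives without 2 libraries and with the A libraries alone were chosen after seeing the data.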

Additional observations from a re-analysis of the deposited data

Results flagged for a closer look

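In groups of 4 libraries of the same treatment, the highest or lowest value was flagged where its gap to the nearest other exceeded Dixon's 95% limit. For values of a single population chance passes it in about 1 of 20 groups. Each group here mixed A and B libraries, so that rate need not hold. Of 90 groups of values tested, 12 were flagged, 10 of them in no-ligand B1. In that library MT-ND1 stood at 15086.5 normalised CPM, MT-ND2 at 9802, MT-ND4 at 22975, MT-ND4L at 2661 and MT-ND5 at 15913, each above the other no-ligand libraries. NDUFV1 at 47.2 and NDUFS8 at 24.8, both core subunits of complex I, were below them. The same library had 43.9% mitochondrial rRNA, a total count of 2604885 and a short-minus-long gene deviation of -1.22. In no-ligand B2, COX6B1 at 249 normalised CPM and COX7B at 73.5 were above the other no-ligand libraries.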

How the results depend on the processing

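No result reversed. For serotonin averaged over the letters, 0 members were called, and 0 to 33 on leaving out single libraries, with 33 without no-ligand B2. Within A the count was 0 under every alternative run. Within B it was 0, against 11 with no low-count filter, 11 by DESeq2, 14 with the replicate block and 0 to 59 on leaving out single libraries, with 59 without no-ligand B2. For the difference of responses it was 0, against 1 with no filter, 2 by DESeq2 and 0 to 50 on leaving out single libraries. Between letters it was 3, against 13 with no filter, 13 by DESeq2, 1 in the additive model, 33 without no-ligand B1 and serotonin B2, and 0 to 37 on leaving out single libraries. It was 0 without serotonin A2, serotonin B2, no-ligand A1 or no-ligand A2, 1 without serotonin A1, 7 without serotonin B1, 28 without no-ligand B1 and 37 without no-ligand B2. The cause of these changes was not tested. Over all genes, serotonin averaged over the letters gave 1 call, against 11 by DESeq2, 227 with no filter, 27 with the replicate block and 1650 without no-ligand B2. Within B all genes gave 2 calls (0.0117%), against 1599 by DESeq2 (9.33%), 1830 with no filter (5.14%), 2218 with the replicate block (12.9%) and 4846 without no-ligand B2 (26.3%). The difference of responses gave 0, against 77 by DESeq2 (0.449%), 570 with no filter (1.60%), 250 with the block (1.46%) and 3482 without no-ligand B2 (18.9%). Between letters DESeq2 called 11.1% and no filter 6.47% of genes, against 9.36%. The labels do not say whether like codes mark paired libraries. Deviations of like-coded libraries correlated by 0.035 in A and 0.17 in B over 10286 genes. Each letter gives a single correlation, and the one in B includes no-ligand B1, so these values cannot decide it. Leaving out 1 library leaves a letter and treatment with 1 library, assumed to vary like the others. Read pairs carry no molecular identifiers, and no-ligand B1 at 2604885 counts limits low genes most.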
